A study of Mus musculus with 2 samples.

Results

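Naive-factor-rich ES cells were the 213 mouse embryonic stem (ES) cells, 136 wild-type and 77 *Lin28a* knockout, with the largest share of their transcripts on the transcription factor genes *Nanog*, *Zfp42*, *Esrrb*, *Tfcp2l1*, *Klf2*, *Klf4* and *Tbx3*. They were chosen by the summed share of these 7 genes among the unique molecular identifiers (UMIs, each standing for 1 captured transcript) of a cell, as the top 10% of each library, out of 2141 ranked cells and 10389 barcodes. Ranked cells had at least 2000 UMIs, between 0.5% and 20% of them from mitochondrially encoded genes, at least 5% from ribosomal protein (RP) genes and under 0.3% from *Col1a1*, *Col1a2* and *Col3a1*, which mark feeder fibroblasts. There were 1362 such cells in the wild-type (WT) and 779 in the knockout (AKO) library. The lowest 10% of each, again 136 and 77 cells, served as the reference, and the 1090 and 625 cells between them are called the middle.

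The study asked what the RNA-binding protein Lin28a, abundant in pluripotent cells, does to gene expression in ES cells. It captured single cells of 1 WT clone and 1 AKO clone of the E14 line with the inDrop droplet system. The AKO clone was cut by Cas9 in the second exon of *Lin28a* and picked after puromycin selection, and the WT clone had been transfected too. Both had spent 2 days on gelatin with feeder fibroblasts in LIF/2i, that is the cytokine LIF with inhibitors of MEK and GSK3, so no cell here was without the inhibitors. With 1 library of 1 clone for each genotype, the genotype, the clone and the culture cannot be told apart and no test across replicates can be made. Every interval is at 95% and covers counting error only.

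The naive state resembles the epiblast of the blastocyst and is kept by a network of transcription factors around *Pou5f1* and *Sox2*. LIF acts through Stat3 on *Klf4* and *Tfcp2l1*, inhibition of GSK3 relieves repression of *Esrrb* by Tcf7l1, and FGF acts through MEK and ERK toward the primed state. *Nanog* and *Zfp42* (Rex1) are widely used reporters of the naive state because their levels vary from cell to cell.

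Promoter sequences of 3 factors are shown because each holds a short motif bound by another member of this network. RefSeq promoters of GRCm38.p6 matched 6 of the 7 factors with 8 start sites. The 250 bases before each start were searched on both strands for the Oct4 and Sox2 motif (TTTGCAT and ACAATG, 1 base apart), the Esrrb motif AAGGTCA, the Klf motif CCACACCC, the Tfcp2l1 motif (CCAG and CCAG, 6 bases apart) and the Stat3 motif TTCNNNGAA. The windows are chr6:122707239-122707488 on the plus strand for *Nanog*, chr8:43307010-43307259 on the minus strand for *Zfp42* and chr12:86360867-86361116 on the plus strand for *Esrrb*, upstream of the first exon, written 5′ to 3′ with the match in capitals. No matches of different motifs overlapped.
Nanog: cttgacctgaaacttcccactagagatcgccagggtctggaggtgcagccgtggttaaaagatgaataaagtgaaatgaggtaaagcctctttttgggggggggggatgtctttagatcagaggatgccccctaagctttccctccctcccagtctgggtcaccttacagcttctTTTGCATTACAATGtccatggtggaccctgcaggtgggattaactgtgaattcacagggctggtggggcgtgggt
Zfp42: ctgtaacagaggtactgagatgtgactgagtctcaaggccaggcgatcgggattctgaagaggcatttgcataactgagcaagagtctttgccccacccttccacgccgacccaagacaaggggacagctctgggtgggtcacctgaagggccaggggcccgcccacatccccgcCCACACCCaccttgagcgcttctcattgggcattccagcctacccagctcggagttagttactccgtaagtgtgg
Esrrb: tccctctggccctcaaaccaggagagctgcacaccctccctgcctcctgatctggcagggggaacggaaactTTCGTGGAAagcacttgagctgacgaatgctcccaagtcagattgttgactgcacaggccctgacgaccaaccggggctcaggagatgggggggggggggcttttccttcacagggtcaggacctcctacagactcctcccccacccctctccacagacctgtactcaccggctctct
The *Nanog* window held the Oct4 and Sox2 motif from base -75 to -62, counted back from the start. Among all 32851 windows of this length 2 held it, which are overlapping windows of 2 *Nanog* start sites with the same single match. The *Zfp42* window held the Klf motif from -75 to -68, which 3.20% of all windows hold, and the upstream of 2 *Esrrb* windows held the Stat3 motif from -178 to -170, which 7.02% hold, whereas the other *Esrrb* window held none of the motifs. The Esrrb motif (4.08% of all windows) and the Tfcp2l1 motif (2.78%) were in none of the 8 windows of these factors.

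*Lin28a* (ENSMUSG00000050966.9, chromosome 4 from 134003330 to 134018841, minus strand, GRCm38), the targeted gene, was read first. It had 117 UMIs in WT members and 17 in AKO members, or 138 and 25.6 CPM (the gene's UMIs summed over the cells and scaled to a common total). At least 1 UMI was seen in 52.9% of WT members (44.2 to 61.6) and 18.2% of AKO members (10.3 to 28.6), at median depths of 5604.5 and 7862 UMIs. Feeder-like barcodes, which should lack the transcript, had 1 in 7.14% of 42 WT and 15.4% of 13 AKO cells at median depths of 9291.5 and 7134 UMIs, a background whose counting interval over 13 AKO cells ran from 1.92% to 45.5%, too wide to set the share in AKO members against.

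The factor levels chose the cells and are given as a description. The last WT member had a factor share of 0.391% and the first cell outside 0.389%, and in the AKO library both were at 0.360%. Members carried a median of 24 factor UMIs in WT and 31 in AKO cells, against 7 and 6 in the reference, so the ranking of a single cell rested on few transcripts. *Zfp42*, a zinc finger gene silenced on exit from the naive state, was at 1222 CPM in WT and 1017 CPM in AKO members, against 371 and 262 CPM in the reference. The Krüppel-like factor *Klf4* was at 1093 CPM in WT and 1010 CPM in AKO members, against 246 and 209 CPM in the reference. These 2 genes gave 28.0% and 25% of the factor UMIs of WT members and 25% and 24.8% of those of AKO members, so the ranking leaned on them.

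The homeodomain factor *Nanog* was at 505 CPM in WT and 541 CPM in AKO members, against 133 and 90.6 CPM in the reference. The T-box factor *Tbx3* was at 515 CPM in WT and 463 CPM in AKO members, against 153 and 123 CPM in the reference. The nuclear receptor *Esrrb* was at 345 CPM in WT and 389 CPM in AKO members, against 122 and 143 CPM in the reference. Each of these gave a smaller part of the share than *Zfp42* or *Klf4*. The grainyhead-like factor *Tfcp2l1* was at 408 CPM in WT and 313 CPM in AKO members, against 158 and 125 CPM in the reference. *Klf2*, a second Krüppel-like factor, was at 279 CPM in WT and 332 CPM in AKO members, against 125 and 119 CPM in the reference. The reference was poorer in all 7 transcripts but lacked none.

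**Figure D1:**
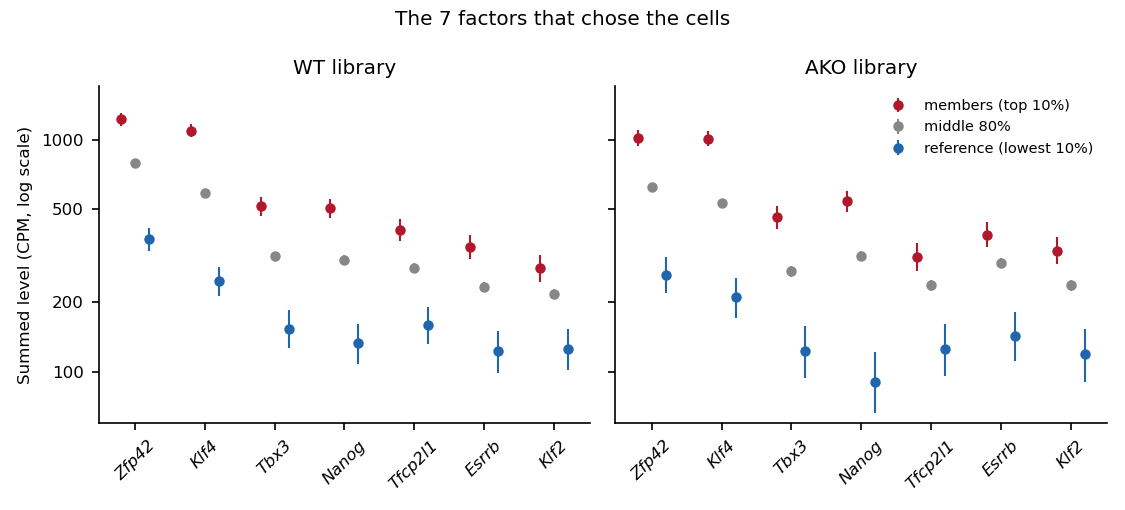
Level of each factor (CPM, log axis) in members, middle and reference cells of the WT and AKO libraries, with exact Poisson 95% intervals. Members lie above the reference for each of the 7 because the factors chose the cells, from 279 against 125 CPM for *Klf2* to 1222 against 371 CPM for *Zfp42* in WT cells.

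Most members held most of the factors, but only 1 of the 7 was detected in 1 AKO member and 3 in 1 WT member. At least 5 of the 7 were detected in 96.3% of WT and 94.8% of AKO members and in 37.5% and 31.2% of reference cells, and all 7 in 61 of 136 and 48 of 77 members. With each cell taken at 2000 UMIs the mean number detected was 4.53 and 4.43 in members and 2.11 and 1.75 in the reference. *Nanog* was seen in 88.2% and 93.5% of members, 49.3% and 37.7% of reference cells and 16.7% and 23.1% of feeder-like barcodes. *Klf4* was seen in 99.3% and 98.7% of members but also in 95.2% and 84.6% of feeder-like barcodes. *Tbx3* was seen in 94.1% and 90.9% of members and in 59.5% and 38.5% of feeder-like barcodes. Detection of these 2 factors was thus not particular to ES cells.

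How far the factor share held on UMIs that had not chosen the cells was then read. When the UMIs of each cell were split evenly at random and cells ranked on 1 part, the 7 factors made up 0.331% of the other part in the top 10% and 0.231% in the lowest 10% of WT cells, a ratio of 1.44 (1.32 to 1.56). In AKO cells they made up 0.334% and 0.189%, a ratio of 1.76 (1.58 to 1.97). On the part that chose the cells the ratios were 4.91 and 6.02, and 87 of the 136 and 51 of the 77 cells so chosen were members. The gap between factor-rich and factor-poor cells was thus much smaller on transcripts that had no part in the choice, but it did not vanish. The same 7 genes ranked the cells and were measured, so these ratios mix how each factor held within a cell with how the factors went together.

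The 7 factors differed in this measure. *Klf4* had ratios of 1.94 (1.60 to 2.35) in WT and 2.58 (2.00 to 3.35) in AKO cells. *Tbx3* had 1.70 (1.31 to 2.21) and 1.63 (1.17 to 2.31), and *Nanog* had 1.51 (1.17 to 1.97) and 2.32 (1.65 to 3.31). *Zfp42* had 1.36 (1.16 to 1.60) and 1.77 (1.41 to 2.24). For these 4 factors the intervals of both libraries lay above 1. *Esrrb*, at 1.21 (0.893 to 1.63) and 1.09 (0.787 to 1.51), and *Tfcp2l1*, at 1.11 (0.852 to 1.44) and 1.31 (0.923 to 1.86), had intervals that included 1. *Klf2* was level in WT cells, at 0.992 (0.735 to 1.34), and at 1.47 (1.01 to 2.14) in AKO cells.

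Whether the factors went together was read by leaving each factor out of its own ranking. *Nanog* was at 358 and 247 CPM in the WT cells richest and poorest in the other 6 factors, a ratio of 1.45 (1.21 to 1.75), and at 428 and 191 CPM in AKO cells, a ratio of 2.24 (1.77 to 2.86). *Tbx3* followed with ratios of 1.54 (1.29 to 1.86) and 2.00 (1.56 to 2.58), and *Zfp42* with 1.35 (1.20 to 1.52) and 1.54 (1.31 to 1.80). *Esrrb* lay above 1 here as well, at 1.38 (1.12 to 1.71) and 1.31 (1.04 to 1.66). Cells rich in the other 6 factors were therefore richer in each of these 4. When cells were ranked within bins of RP share, described below, the AKO ratios of *Nanog*, *Tbx3* and *Zfp42* were smaller, at 1.57, 1.42 and 1.17. *Klf2* was at 190.4 and 209 CPM, a ratio of 0.910 (0.727 to 1.14), and at 1.13 (0.880 to 1.46) in AKO cells, and *Tfcp2l1* at 1.12 (0.924 to 1.36) and 1.25 (0.965 to 1.64), all with intervals that included 1. *Klf4* was at 1.51 (1.32 to 1.72) in WT and 1.17 (0.998 to 1.37) in AKO cells. Over 4 other settings it ran from 1.24 to 1.60 in WT and from 1.07 to 1.66 in AKO cells. The value of 1.66 was without the 4 ranked cells rich in fibroblast genes that are described next, an alternative added after seeing the data.

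**Figure D2:**
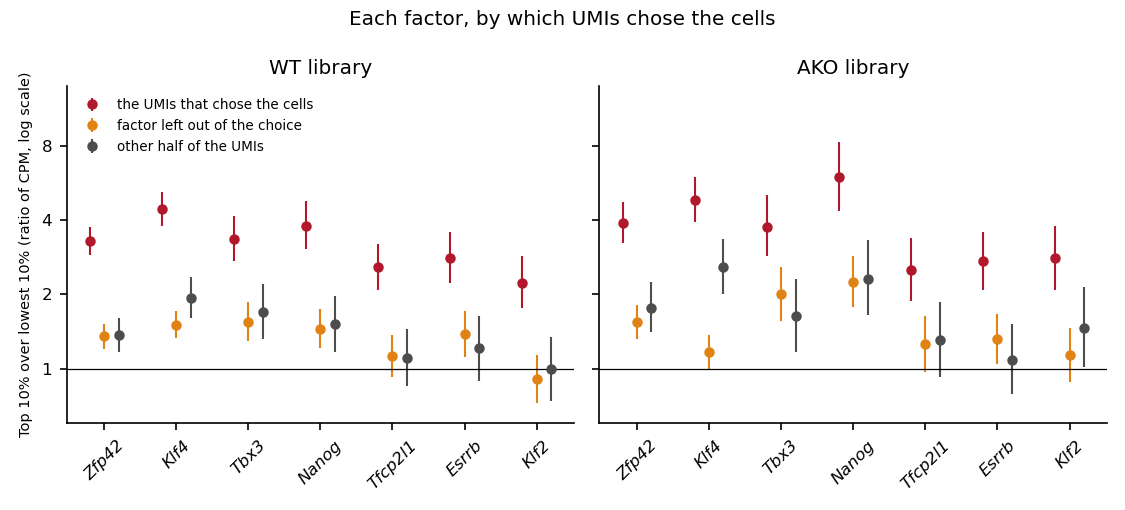
Ratio of the top 10% over the lowest 10% of cells for each factor (log axis, 95% counting intervals), when all 7 factors chose the cells, when the factor was left out of the choice, and on the UMIs not used to choose. Ratios on UMIs that did not choose the cells run from 0.910 to 2.58, below those of the full choice, and *Klf2* in WT cells is under 1 in both.

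Members and reference also differed in general features of the cells. The median RP share was 8.05% against 9.29% in WT and 8.59% against 11.9% in AKO cells. A share of at least 15% was found in 0 of 136 WT members, which allows up to 2.21%, and in 2 of 136 reference cells, and in 0 of 77 AKO members, which allows up to 3.90%, and 8 of 77 reference cells. The median mitochondrial share was 1.63% against 1.33% and 2.19% against 1.48%, and the median depth 5604.5 against 5505 and 7862 against 5811 UMIs. A mitochondrial share under 1% was found in 12.5% of WT and 2.60% of AKO members and in 34.6% and 31.2% of reference cells. Members thus had fewer RP and more mitochondrial transcripts than the reference, and AKO members were deeper. A ratio of members over reference can come from either end, and no ranking within bins of mitochondrial share was made. One AKO member of 18430 UMIs had 0.998% of them on fibroblast genes and 34 of the 39 *Col1a1* UMIs of AKO members, and 3 AKO reference cells had 1.70% to 4.33%. No WT cell among the 1362 ranked reached 0.5%. Scrublet marked 1 WT and 3 AKO members as doublets.

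Because the RP share moved with the ranking, the comparisons were repeated with cells ranked within 5 bins of RP share, an alternative added after seeing the data, and its values are given beside the main ones for the lists and for most genes named from them. The AKO cells rich in fibroblast genes were kept in these bins, and no alternative both used the bins and left such cells out. The part of depth and of mitochondrial share in the results was not tested beyond the alternatives given.

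Genes outside the 7 factors were compared where members and reference together had at least 100 UMIs in each library, which left 2177 genes. A gene was called when its CPM differed at least 1.5-fold in the same direction in both libraries, and no p-value goes with a call. Paired values are given for members and then reference, WT before AKO, and ratios are of CPM in members over reference with the interval in parentheses. In members 71 genes were higher, 3.26% of those compared, and 32 were lower, 1.47%. In WT alone 3.86% were higher and 3.26% lower, and in AKO alone 22.6% and 16.6%. The AKO groups held fewer cells and UMIs (665394 in members and 496539 in the reference, against 846208 and 776043 in WT), and what part of the larger share is counting noise was not tested. With median of ratios scaling the 71 and 32 became 114 and 18. Within bins of RP share 6 genes were higher and 0 lower of 2135 compared, and 5 of the 6 were among the 71. Against all other ranked cells 48 were higher and 46 lower of 8079 compared, of which 0 and 1 were among the 71 and 32. With tails of 5%, 10 and 8 of the 71 and 32 were among the calls, with tails of 20% 22 and 3, with the ranking on thinned counts 5 and 2, and on UMIs not used to rank 3 and 4. Most of the 71 and 32 calls were thus not made with these other ends or rankings, but only 921 genes could be compared with tails of 5% and 957 on UMIs not used to rank, so some of them could not be called there. Other settings shared more of the calls, 64 and 27 without doublets, 58 and 25 with at least 4000 UMIs per cell, 56 and 17 without *Klf2* in the ranking and 52 and 21 with the ranking within bins of depth.

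Called genes were ordered by the ratio of the library in which they differed less. Of the 12 highest in this order, 4 also passed 1.5-fold in both libraries within bins of RP share. *Tmem64*, which encodes a transmembrane protein, was at 226 and 111 CPM in WT members and reference, a ratio of 2.04 (1.57 to 2.66), and 185 and 48.3 CPM in AKO cells, a ratio of 3.82 (2.46 to 6.20). *Cited2*, a co-regulator that binds CBP and p300, was at 167 and 85.0 CPM in WT, 1.96 (1.45 to 2.67), and 195 and 52.4 CPM in AKO cells, 3.73 (2.44 to 5.92). *Sgk1*, a kinase induced by serum and glucocorticoids, was at 389 and 213 CPM in WT, 1.83 (1.51 to 2.22), and 434 and 105 CPM in AKO cells, 4.15 (3.08 to 5.68). *Ireb2*, an iron-responsive RNA-binding protein, was at 130.0 and 69.6 CPM in WT, 1.87 (1.34 to 2.64), and 141 and 34.2 CPM in AKO cells, 4.13 (2.44 to 7.38). Their ratios within bins ran from 1.54 to 2.66, so these 4 were higher in factor-rich cells of like RP share as well.

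A pair of chromatin remodellers was in the same group. *Smarcad1* was at 191 and 100.5 CPM in WT, 1.91 (1.45 to 2.53), and 162 and 56.4 CPM in AKO cells, 2.88 (1.89 to 4.53). *Atrx* was at 474 and 263 CPM in WT, 1.80 (1.52 to 2.14), and 188 and 86.6 CPM in AKO cells, 2.17 (1.52 to 3.14). *Smarcad1* was at 1.41 and 1.85 within bins of RP share, and *Atrx* at 1.33 and 1.20. The other 6 were *Spry2*, *Gm20716*, *Wsb1* (a ubiquitin ligase substrate receptor), *Rab18* (a small GTPase), *Irf2bpl* and *Wdr26* (a ubiquitin ligase subunit), with ratios of 1.80 to 1.96 in WT and 1.80 to 4.13 in AKO cells, and of 1.16 to 1.71 and 1.24 to 2.60 within bins of RP share. For all 12 genes the middle cells lay between members and reference in both libraries. The genes were picked for the largest gap between these 2 ends, which favours this order.

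The 12 lowest genes in the same order included *Cdc20*, the activator of the anaphase-promoting complex, at 78.0 and 138 CPM in WT members and reference, a ratio of 0.566 (0.410 to 0.776), and 84.2 and 236 CPM in AKO cells, a ratio of 0.357 (0.255 to 0.495). *Srm*, spermidine synthase, was at 74.5 and 124 CPM in WT, 0.602 (0.431 to 0.836), and 91.7 and 195 CPM in AKO cells, 0.469 (0.335 to 0.653). *Upp1*, uridine phosphorylase, was at 169 and 284 CPM in WT, 0.596 (0.479 to 0.739), and 192 and 334 CPM in AKO cells, 0.575 (0.453 to 0.729). The prefoldin subunit gene *Pfdn6* had ratios of 0.544 and 0.420 and the mitochondrial ribosome gene *Mrpl45* 0.546 and 0.520. Within bins of RP share no gene was called lower, and *Cdc20* was at 0.727 and 0.557, *Srm* at 0.742 and 0.701 and *Upp1* at 0.728 and 0.836. The other 7 were *Gm6344*, *Gm48909*, *Gm6061*, *Gm20390*, *Gm9625*, *Gm7666* and *Gm20441*, predicted genes whose reads can be shared with near-identical copies, so their levels are uncertain. Over these 7, *Pfdn6* and *Mrpl45* the ratios within bins ran from 0.552 to 0.840 in WT and 0.510 to 1.03 in AKO cells. Pseudogenes made up 28.1% of the 32 lower genes, 2.82% of the 71 higher genes and 15.3% of all compared.

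Transcript structure differed between the called groups. Lengths were read for protein-coding genes only, 68 of the 71 higher genes, 22 of the 32 lower genes and 1784 of all compared. Their median annotated transcript was 4761.5, 1432 and 2673 bases long. The median 3′ untranslated region was 2038.5, 197.5 and 917.5 bases long. The protein-coding higher genes were thus mostly long transcripts and the lower ones short. Only 5 of the 71 and 0 of the 32 were called again within bins of RP share, and lengths were not read there. Of the higher genes 57 had a promoter window, and of the 57 the Esrrb motif was in 3 (5.26%, against 3.96% of the compared genes with a window), the Klf motif in 2 (3.51% against 3.82%), the Stat3 motif in 4 (7.02% against 6.29%) and the Tfcp2l1 motif in 1 (1.75% against 2.83%).

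**Figure D3:**
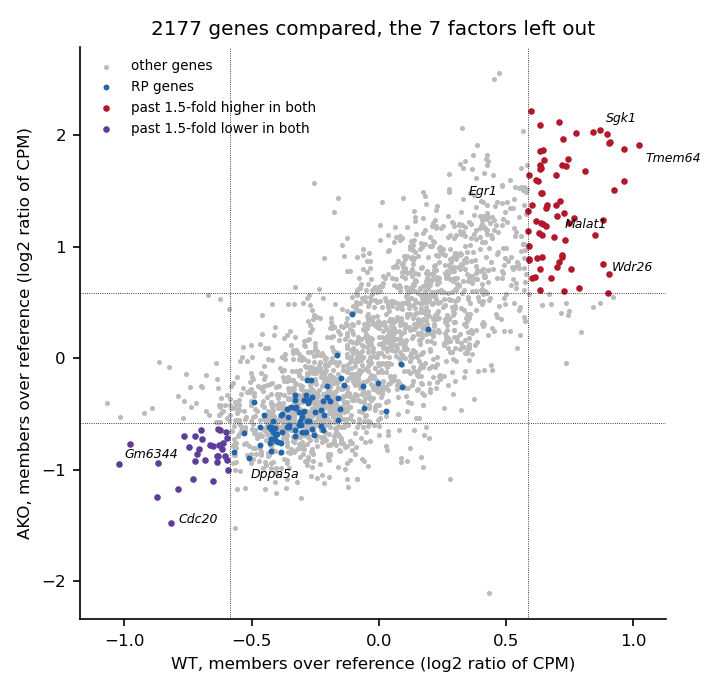
Log2 ratio of CPM in members over reference for the 2177 genes compared, WT on the x axis and AKO on the y axis, with dotted lines at 1.5-fold. RP genes lie mostly below 0 on both axes, the 71 higher and 32 lower genes lie past the dotted lines in both libraries, and the spread is wider along the AKO axis.

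Lists of genes that keep or end the naive state were summed over members and reference, beside a median log2 ratio over all genes compared of -0.07 in WT and -0.05 in AKO cells. The sum of the 18 other naive-state genes, which had no part in the choice, was not higher in members. The cells are called here by the 7 factors and not by the state. The list was at 2878 and 3006 CPM in WT members and reference, a ratio of 0.957 (0.904 to 1.01), and 3028 and 3683 CPM in AKO cells, a ratio of 0.822 (0.771 to 0.876). Of the 6 compared 0 were called, beside 3.26% of all genes called higher and 1.47% lower. The median log2 ratio of the 6 was 0.14 in WT, unlike the sum, and -0.12 in AKO cells. *Klf5*, a relative of *Klf2* and *Klf4*, was at 604 and 519 CPM in WT, 1.16 (1.02 to 1.33), and 726 and 616 CPM in AKO cells, 1.18 (1.02 to 1.36). *Dppa5a*, a pluripotency marker with a KH domain, was at 867 and 1174 CPM in WT, 0.739 (0.669 to 0.815), and 971 and 1752 CPM in AKO cells, 0.554. *Klf5* and *Dppa5a* lay on opposite sides of 1 in both libraries. *Dppa5a* alone made up 867 of the 2878 CPM of the list in WT members and 1174 of the 3006 CPM in the reference. In AKO cells it made up 971 of 3028 CPM and 1752 of 3683 CPM. The level that these values leave for the rest of the list was higher in members than in the reference in both libraries. The lower sum of the list in members thus came from *Dppa5a*, and no interval was made for the sum without it. *Tdh*, threonine dehydrogenase, was at 479.8 and 474 CPM in WT, 1.01 (0.876 to 1.17), and 413 and 477 CPM in AKO cells, 0.866 (0.725 to 1.03). *Tet2*, a DNA dioxygenase gene with too few UMIs to be compared, was at 136 and 74.7 CPM in WT, 1.82 (1.31 to 2.54), and 99.2 and 46.3 CPM in AKO cells, 2.14 (1.31 to 3.61). Within bins of RP share the list was at 1.01 (0.953 to 1.07) and 0.916 (0.857 to 0.978). *Klf5* was then at 1.18 and 1.06 (0.920 to 1.23), *Dppa5a* at 0.890 and 0.733 and *Tdh* at 1.09 and 1.10 (0.922 to 1.32). *Tet2* was then at 1.51 and 1.35 (0.867 to 2.15), so that its AKO interval, like that of *Klf5*, included 1.

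Core pluripotency genes were at 1.14 (1.08 to 1.19) in WT and 1.10 (1.03 to 1.17) in AKO cells, and at 1.06 (1.01 to 1.11) and 1.06 (0.994 to 1.12) within bins of RP share. Of the 11 compared 2 were called higher, beside 3.26% of all genes. *Rif1*, a regulator of replication timing, was at 620.4 and 375 CPM in WT, 1.66 (1.43 to 1.92), and 334 and 135 CPM in AKO cells, 2.47 (1.87 to 3.30). The zinc finger factor *Zfp281* was at 201 and 124 CPM in WT, 1.62 (1.26 to 2.11), and 153 and 58.4 CPM in AKO cells, 2.62 (1.72 to 4.11). Within bins of RP share *Rif1* was at 1.29 and 1.38 and *Zfp281* at 1.33 and 1.35 (0.941 to 1.95). *Pou5f1*, which encodes Oct4, was at 820.1 and 903 CPM in WT, 0.908 (0.816 to 1.01), and 959 and 1134 CPM in AKO cells, 0.846 (0.754 to 0.949). *Sox2* was at 182 and 124 CPM in WT, 1.47 (1.13 to 1.92), and 97.7 and 70.5 CPM in AKO cells, 1.39 (0.905 to 2.15). *Pou5f1* was at 0.989 and 0.987 (0.878 to 1.11) within the bins. Members were therefore not richer in *Pou5f1* than the reference.

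The 12 targets of FGF and ERK, the arm that the MEK inhibitor blocks, were higher in members, at 889 and 666 CPM in WT members and reference, a ratio of 1.33 (1.19 to 1.49), and 1025 and 395 CPM in AKO cells, a ratio of 2.60 (2.21 to 3.06). Over 14 other settings the ratio lay between 1.15 and 1.64 in WT and between 1.53 and 2.95 in AKO cells, and within bins of RP share it was 1.18 (1.06 to 1.32) and 1.76 (1.53 to 2.04). *Spry2*, a feedback inhibitor of receptor tyrosine kinases and the 1 of 3 compared that was called (3.26% of all genes were), was at 175 and 92.8 CPM in WT, 1.89 (1.41 to 2.53), and 158 and 40.3 CPM in AKO cells, 3.92 (2.41 to 6.67). The immediate early gene *Egr1* was at 274 and 189 CPM in WT, 1.45 (1.17 to 1.79), and 295 and 109 CPM in AKO cells, 2.71 (2.00 to 3.73). *Etv5*, an ETS factor, was at 161 and 153 CPM in WT, 1.05 (0.814 to 1.35), and 180.3 and 84.6 CPM in AKO cells, 2.13 (1.49 to 3.11). With RP share held within bins *Spry2* was at 1.5 and 2.60, *Egr1* at 1.41 and 1.71, and *Etv5* at 0.907 (0.703 to 1.17) and 1.36 (0.986 to 1.88). *Spry2* and *Egr1* were thus higher in both libraries either way, whereas the interval of *Etv5* in AKO cells then included 1. Cell by cell the list had a median of 816 CPM in WT members and 606 in the reference, and 764 and 335 in AKO cells. The AKO member rich in fibroblast genes held 137 of the 682 UMIs of the list, and without the 4 cells of that kind the AKO ratio was 2.11 (1.79 to 2.49) for the list and 1.97 (1.42 to 2.76) for *Egr1*.

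The LIF and Stat3 pathway was at 1077 and 1191 CPM in WT members and reference, a ratio of 0.904 (0.824 to 0.992), and 1286 and 1086 CPM in AKO cells, a ratio of 1.19 (1.06 to 1.32), and of the 4 compared 0 were called, a number too small to read against the 3.26% and 1.47% of all genes. *Stat3* was at 247 and 255 CPM and 262 and 201 CPM, and its target *Pim1*, a kinase, at 247 and 226 CPM in WT, 1.09 (0.892 to 1.35), and 242 and 129 CPM in AKO cells, 1.88 (1.40 to 2.55), but at 0.902 (0.731 to 1.11) and 1.07 (0.816 to 1.41) within bins of RP share. The cyclin gene *Ccnd3* lay the other way, at 293 and 396 CPM in WT, 0.741 (0.624 to 0.879), and 293 and 415 CPM in AKO cells, 0.706 (0.578 to 0.863), and at 0.807 (0.678 to 0.959) and 0.903 (0.735 to 1.11) within bins. The AKO member rich in fibroblast genes held 89 of the 856 UMIs of the list, and without such cells the AKO ratio was 1.08 (0.964 to 1.20). Within bins of RP share, where such cells were kept, the list was at 0.909 (0.828 to 0.998) and 1.22 (1.09 to 1.36). The Wnt list was at 1.15 (1.01 to 1.32) in WT and 1.54 (1.27 to 1.87) in AKO cells, and at 1.08 (0.946 to 1.24) and 1.10 (0.916 to 1.31) within bins. In it *Ctnnb1*, beta-catenin, was called, 1 of 2 compared beside 3.26% of all genes, at 255 and 153 CPM in WT, 1.67 (1.32 to 2.10), and 224 and 107 CPM in AKO cells, 2.10 (1.52 to 2.93), and was at 1.42 and 1.09 within bins of RP share.

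Primed epiblast genes were at 548 and 439 CPM in WT members and reference, a ratio of 1.25 (1.08 to 1.44), and 583 and 320.2 CPM in AKO cells, a ratio of 1.82 (1.51 to 2.20). Of the 23 genes 1 had enough UMIs to be compared, the ephrin receptor gene *Epha4*, at 182 and 135 CPM in WT, 1.34 (1.04 to 1.74), and 161 and 64.5 CPM in AKO cells, 2.50 (1.67 to 3.83), and at 1.40 and 1.5 within bins of RP share. *Fgf5*, a defining gene of the primed state, had 0 UMIs in members of either library. The list was at 1.11 (0.962 to 1.27) and 1.38 (1.16 to 1.65) within bins of RP share, and when cells were ranked on counts thinned to 2000 UMIs the WT ratio was 0.911, on the other side of 1. In AKO members 52 of the 58 *Sox4* UMIs came from the cell rich in fibroblast genes, and without such cells the list was at 1.61 (1.33 to 1.96). The AKO value within bins of RP share keeps such cells, with 55 *Sox4* UMIs in its top cells.

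Markers of other cell types were at low levels in members. The 26 fibroblast genes were at 820.1 and 747 CPM in WT, 1.10 (0.981 to 1.23), and 1079 and 1361 CPM in AKO cells, 0.793 (0.713 to 0.882), and at 1.21 (1.06 to 1.39) in AKO cells without the cells rich in them. Primitive endoderm genes were at 534 CPM in WT and 648 CPM in AKO members, with ratios of 0.960 (0.839 to 1.10) and 0.952 (0.823 to 1.10). Trophoblast genes were at 141 CPM in WT and 135 CPM in AKO members, with ratios of 1.05 (0.800 to 1.38) and 1.40 (0.975 to 2.03). Within bins of RP share fibroblast genes were at 1.04 (0.932 to 1.17) and 0.762 (0.685 to 0.848), primitive endoderm genes at 0.912 (0.797 to 1.04) and 0.870 (0.752 to 1.01) and trophoblast genes at 1.0 and 1.22 (0.856 to 1.75). Neither of the last 2 lists differed between members and reference beyond counting error. The 2C genes, expressed at zygotic genome activation, were at 208 and 159.8 CPM in WT, 1.30 (1.03 to 1.65), and 116 and 58.4 CPM in AKO cells, 1.98 (1.28 to 3.15), nearly all of it *Eif1a*, at 198 and 111 CPM in members. Ranked within bins of RP share the 2C genes were at 1.16 (0.915 to 1.47) and 1.19 (0.811 to 1.77), with both intervals including 1, and *Eif1a* at 1.14 and 1.26.

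Genes of the ribosome and of energy metabolism were lower in members. The 86 RP genes were at 81330 and 99320 CPM in WT members and reference, a ratio of 0.819 (0.810 to 0.827), and 85380 and 122100 CPM in AKO cells, a ratio of 0.699 (0.691 to 0.707). Of 83 compared, 77 were lower in both libraries by any amount, beside 998 of all 2177 genes, and 0 were called. Nuclear-encoded oxidative phosphorylation genes were at 0.852 (0.824 to 0.881) in WT and 0.755 (0.727 to 0.784) in AKO cells. Of 27 compared, 22 were lower in both libraries by any amount, beside the same 998 of 2177. The cytochrome oxidase subunit gene *Cox7a2* was the 1 called, beside 1.47% of all genes called lower, at 157 and 238 CPM and 210.4 and 334 CPM. Within bins *Cox7a2* was at 0.837 (0.668 to 1.05) and 0.928 (0.723 to 1.19), with both intervals including 1. Glycolytic enzymes were at 0.858 (0.828 to 0.890) in WT and 0.813 (0.784 to 0.844) in AKO cells, with *Gapdh* at 3260 and 4081 CPM and 4636 and 6283 CPM. Within bins of RP share, where the RP genes themselves were at 0.968 and 0.953, the oxidative phosphorylation list was at 0.953 (0.921 to 0.986) and 0.911 (0.876 to 0.948) and the glycolytic list at 0.913 (0.880 to 0.947) and 0.914 (0.880 to 0.950), with all 4 intervals below 1.

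Mitochondrially encoded genes lay the other way, at 17620 and 14190 CPM in WT, 1.24 (1.21 to 1.27), and 22430 and 16540 CPM in AKO cells, 1.36 (1.32 to 1.39), but within bins of RP share they were at 0.975 (0.951 to 0.999) and 0.952 (0.928 to 0.976), so their direction turned. Nuclear-retained RNAs were at 1.48 (1.42 to 1.54) in WT and 1.90 (1.77 to 2.04) in AKO cells, and at 1.18 (1.13 to 1.23) and 1.37 (1.28 to 1.46) within bins. Most of them were *Malat1*, a long noncoding RNA of nuclear speckles, at 5213 and 3212 CPM in WT, 1.62 (1.54 to 1.71), and 2720 and 1122 CPM in AKO cells, 2.42 (2.20 to 2.67). *Malat1* was at 1.26 (1.20 to 1.32) and 1.52 (1.39 to 1.67) within bins of RP share and so stayed higher in members. The imprinted RNA *Meg3* was at 620.4 and 616 CPM in WT, 1.01 (0.888 to 1.14), and 416 and 433 CPM in AKO cells, 0.961 (0.802 to 1.15), and at 0.915 (0.807 to 1.04) and 1.30 (1.08 to 1.58) within bins.

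The lists were then followed along 10 equal steps of the ranking, of which step 1 is the reference and step 10 the members. RP genes were at 99320, 89840 and 81330 CPM in steps 1, 5 and 10 of WT cells and 122100, 97690 and 85380 CPM in AKO cells. FGF and ERK targets were at 666, 822 and 889 CPM and 395, 708 and 1025 CPM. Other naive-state genes were at 3006, 2889 and 2878 CPM and 3683, 3122 and 3028 CPM. In AKO cells step 1 stood further from step 5 than in WT cells for all 3 lists.

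**Figure D4:**
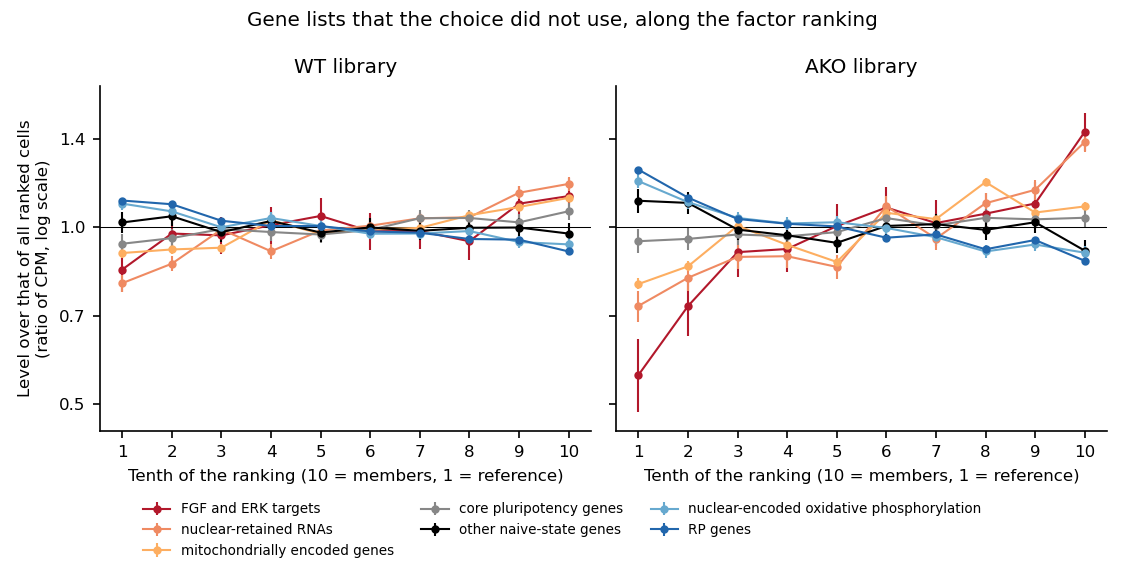
Level of 7 gene lists in each of 10 steps of the factor ranking over that of all ranked cells of the library (ratio of CPM, log axis, 95% Poisson intervals). RP and oxidative phosphorylation genes are lower toward the members at step 10, and nuclear-retained RNAs and FGF and ERK targets are higher. The sum of other naive-state genes is not higher, and *Dppa5a*, which is lower in members, is a large part of it.

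Cell cycle lists differed less. S phase genes were at 1.01 (0.972 to 1.05) in WT and 1.04 (0.990 to 1.10) in AKO cells, but at 0.965 and 0.898 (0.854 to 0.945) within bins of RP share, below 1 in both libraries and beyond counting error in AKO cells. G2 and mitosis genes were at 1.04 (1.01 to 1.08) in WT and 1.13 (1.08 to 1.18) in AKO cells, and at 1.03 (0.996 to 1.06) and 1.07 (1.03 to 1.12) within bins. Of the 30 G2 and mitosis genes compared, *Ect2*, an exchange factor of cytokinesis, was called higher, at 150.1 and 95.4 CPM and 134 and 38.3 CPM, and *Cdc20* lower, 1 gene each way beside 3.26% and 1.47% of all genes, but within bins *Ect2* was at 1.28 (0.958 to 1.71) and 1.24 (0.784 to 1.97). *Top2a*, topoisomerase II, was at 637 and 445 CPM in WT, 1.43 (1.25 to 1.65), and 548 and 348 CPM in AKO cells, 1.57 (1.31 to 1.90), and at 1.33 and 1.20 within bins. Nucleolar and ribosome assembly genes summed to 1.07 (1.03 to 1.10) in WT and 1.28 (1.22 to 1.33) in AKO cells. Within bins they summed to 0.988 (0.960 to 1.02) and 1.08 (1.03 to 1.12), and the WT interval then included 1. Of the 21 compared 6 were higher and 8 lower in both libraries by any amount, beside 810 and 998 of all 2177 genes, and 0 were called. Their median log2 ratio was -0.11 in WT and 0.01 in AKO cells, unlike the sum. The list held the nucleolar chaperone gene *Npm1* at 4602 and 3542 CPM and 3300 and 1798 CPM, with 1.06 and 1.20 within bins, and *Ncl*, nucleolin, at 2655 and 2667 CPM and 1772 and 1361 CPM, with 0.960 and 1.13 within bins. DNA methylation enzymes were at 1.16 (1.06 to 1.27) in WT and 1.28 (1.13 to 1.45) in AKO cells, and p53 targets at 1.07 (0.987 to 1.17) in WT and 1.22 (1.11 to 1.33) in AKO cells. The same lists were at 1.05 (0.962 to 1.15) and 0.975 (0.865 to 1.10) and at 0.990 (0.911 to 1.08) and 1.23 (1.13 to 1.35) within bins of RP share. Without the 4 cells rich in fibroblast genes the AKO ratio of p53 targets was 1.05 (0.949 to 1.15), and that of *Cdkn1a*, the cyclin-dependent kinase inhibitor p21, was 0.736 in place of 1.47. Immediate early and stress genes were at 1.07 (0.986 to 1.16) in WT and 1.31 (1.20 to 1.45) in AKO cells, with *Fos* at 143 and 104 CPM in WT, 1.37 (1.02 to 1.84), and 153 and 26.2 CPM in AKO cells, 5.86 (3.28 to 11.4). Within bins the list was at 1.10 (1.02 to 1.20) and 1.26 (1.15 to 1.39) and *Fos* at 1.83 and 3.05, and without cells rich in fibroblast genes the AKO list was at 1.18 (1.07 to 1.30) and *Fos* at 4.0 (2.24 to 7.67).

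**Figure D5:**
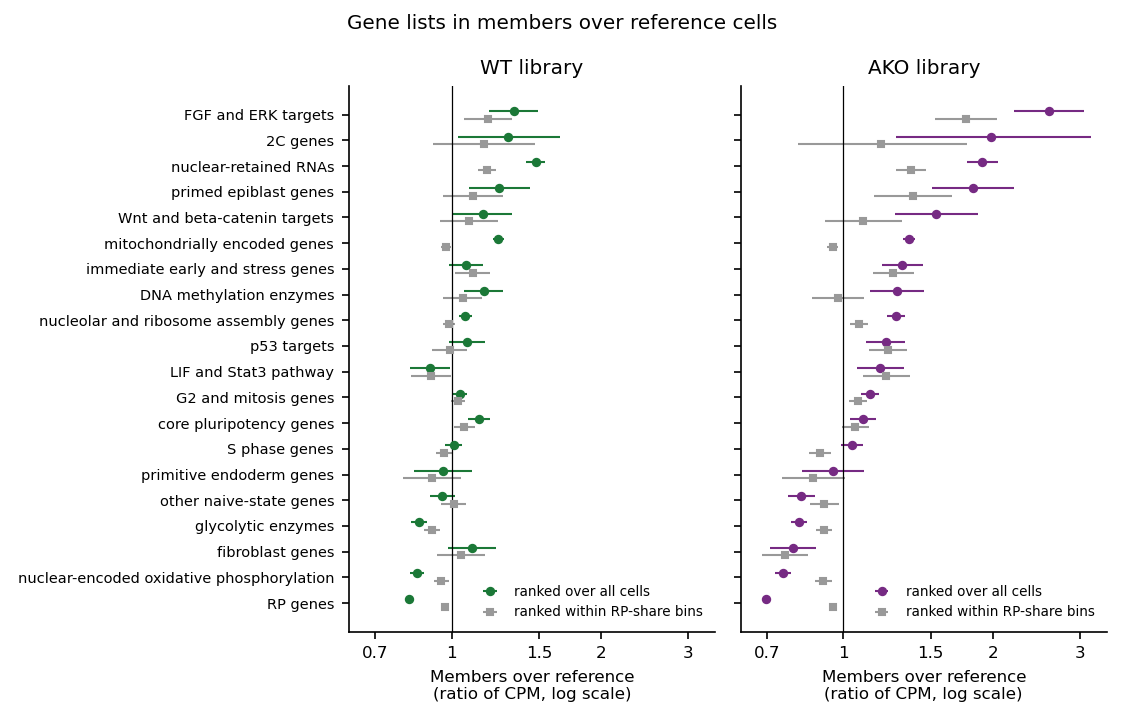
Ratio of CPM in members over reference for 20 gene lists (log axis, 95% counting intervals) in each library, with all cells ranked together and with cells ranked within 5 bins of RP share. Most lists lie nearer to 1 within bins, and FGF and ERK targets stay above 1 in both libraries. The ratios of mitochondrially encoded and S phase genes change side in both libraries, as those of nucleolar genes, p53 targets and other naive-state genes do in WT and DNA methylation enzymes in AKO cells. Outside the mitochondrially encoded genes, each such change had an interval that included 1.

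AKO members were last set beside WT members, each the top 10% of its own library. The 7 factors were at 4367 CPM in WT and 4065 CPM in AKO members, a ratio of AKO over WT of 0.931 (0.886 to 0.979), a value that the choice bears on. Other naive-state genes were at 1.05 (0.992 to 1.12) and primed epiblast genes at 1.06 (0.927 to 1.22), neither beyond counting error. In the reference these 2 lists were at 1.225 (1.15 to 1.30) and 0.729 (0.600 to 0.882). Of the 2177 genes 6.02% were at least 1.5-fold higher and 5.56% lower in AKO than in WT members. Nucleolar and ribosome assembly genes were at 11310 CPM in WT and 8538 CPM in AKO members, a ratio of 0.755 (0.731 to 0.780). Glycolytic enzymes were at 6765 CPM in WT and 8790 CPM in AKO members, a ratio of 1.30 (1.25 to 1.35). Both gaps were also present outside the members. In the reference the AKO over WT ratio was 0.630 (0.605 to 0.656) for the nucleolar and 1.37 (1.32 to 1.42) for the glycolytic list, and over all ranked cells the lists were at 11080 CPM in WT and 8208 CPM in AKO cells and at 7360 CPM in WT and 10030 CPM in AKO cells, so they are differences between the whole libraries. Nuclear-retained RNAs had a ratio of 0.605 (0.578 to 0.634) in members and 0.469 (0.438 to 0.503) in the reference, and 2C genes, nearly all *Eif1a*, a gene of a general initiation factor, 0.556 (0.420 to 0.731) and 0.365 (0.235 to 0.551). For all 4 lists AKO members thus differed from WT members in the direction in which the reference did.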

How the data were processed

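Single-cell RNA-seq of 1 wild-type and 1 *Lin28a* knockout inDrop library was analysed. UMI counts per gene and barcode were deposited as whole numbers without normalization, made by the authors with an inDrop pipeline. The submitters' processing notes name mm10 and Seurat 2.3.4, and the aligner and annotation are not given in the sources used here. The libraries held 12079546 and 10027710 UMIs over 4329 and 6060 barcodes. Genes were named and placed with GENCODE M21 (GRCm38), which held 54079 of 54146 identifiers. Barcodes are numbered within each file, so those shared by the libraries could not be counted. Doublets called by Scrublet were kept.

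The members, gene lists and alternatives were chosen with earlier results of these data known. UMIs were summed over cells and scaled to CPM. Ratios carry exact binomial and levels exact Poisson intervals. For gene calls 0.5 was added to each count, and the limit for a count of 0 is 3 counts. Named genes are the 7 factors, *Lin28a*, the list genes called or most abundant, and the 12 genes at either end of the ratios, ordered by the smaller absolute log2 ratio of the libraries among genes of the same sign in both. *Tet2*, *Sox4*, *Fgf5*, *Sox2*, *Pim1*, *Cdkn1a* and *Fos* were named after their values were seen. The code for the ratios was tried on simulated data with known changes, each library on its own and after subtracting the median ratio. This did not test the rule that calls a gene in both libraries. Python 3.11.15 was used with scanpy 1.11.5, anndata 0.12.19, pandas 2.3.3, matplotlib 3.10.9, scipy 1.17.1 and numpy 2.4.6.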

Additional observations from a re-analysis of the deposited data

Results flagged for a closer look

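The LIF and Stat3 pathway had a ratio of members over reference of 0.904 in WT cells and 1.19 in AKO cells, on opposite sides of 1, and the difference was not tested. In AKO members 89 of the 856 UMIs of the list came from 1 cell rich in fibroblast genes, and without the 4 cells of this kind, an alternative added after seeing the data, the AKO ratio was 1.08 (0.964 to 1.20). The ratios within bins of RP share, also added and with such cells kept, were 0.909 (0.828 to 0.998) and 1.22 (1.09 to 1.36).

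Barcodes kept out of the ranking by a mitochondrial share under 0.5% included some with a factor share as high as that of members. There were 4 of 237 in the WT and 4 of 273 in the AKO library. The comparisons do not use these barcodes, and the factor share is the value that the choice of members used, so the counts are given with no test. The median RP share of the barcodes kept out was 15.3% and 15.9%. In them RP genes were at 152100 and 156900 CPM and FGF and ERK targets at 324 and 304 CPM, further from members than the reference was. Their 7 factors, at 1895 and 1527 CPM, lay between reference and members.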

How the results depend on the processing

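No paired analysis was possible because each genotype has 1 library, and no replicate could be left out. Depth limits the ranking, since a median member had 24 or 31 factor UMIs, and 49 values moved past their counting interval or 1.5 times their count while 136 did not. Ratios are given as WT and AKO where both moved.

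The ratio of members over reference for RP genes was 0.819 and 0.699 and became 0.773 in the WT with tails of 5%, 0.845 and 0.774 with tails of 20%, 0.883 and 0.824 when ranked on counts thinned to 2000 UMIs, 0.829 and 0.719 on UMIs not used to rank, 0.901 and 0.865 against all other cells, 0.835 and 0.730 with equal weight per cell, 0.717 in the AKO within depth bins and 0.798 in the WT without *Klf2*. AKO naive-state genes, at 0.822, were at 0.878 with tails of 20%, 0.946 when thinned and 0.904 against all other cells. AKO primed genes, at 1.82, were at 2.64 with tails of 5%, 1.40 when thinned and 1.32 against all other cells, and WT primed genes went from 1.25 to 0.911 when thinned. The factors were at 1.44 and 1.76 on UMIs not used to rank.

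The 71 higher and 32 lower genes became 44 higher (10 shared) with tails of 5%, 17 lower (3 shared) with tails of 20%, 19 and 4 (5 and 2 shared) when thinned, 13 and 16 of 957 compared on UMIs not used to rank, 52 lower without *Klf2*, 51 lower without mitochondrial and RP genes in the total, 114 and 18 with median of ratios scaling, 21 lower with equal weight, 228 and 73 at a minimum of 50 UMIs, and 2747 and 1299 of 19972 with no minimum.

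Within 5 bins of RP share, added after seeing the data, 6 and 0 genes were called, RP genes were at 0.968 and 0.953, AKO naive-state genes were at 0.916, AKO primed genes at 1.38, and RP genes of AKO over WT members at 1.09. Left out of the ranking in turn, *Klf4* was then at 1.24 in the WT, and *Nanog*, *Tbx3* and *Zfp42* at 1.57, 1.42 and 1.17 in the AKO. Without cells rich in fibroblast genes AKO *Klf4* was at 1.66. The cause of these shifts was not tested. Removing doublets moved none of the values named here.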
